A study of Mus musculus with 6 samples.

Results

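The genes described here carry iron through the marrow: Hmox1, Blvrb, Fth1, Ftl1, Slc40a1 and Slc11a1 on the side of macrophages that recycle and export it, and Trf, Tfrc and Slc11a2 on the side of erythroid cells that take it up. Members were the probe sets whose array annotation names exactly 1 gene symbol, and that symbol is 1 of these 9. This rule found 14 of the 45037 probe sets and covered 7 of the 9 genes, among 18193 genes named on the array. Ftl1 and Trf had no probe set of their own: 3 probe sets name Ftl1 and 1 names Trf, each together with another gene, so both genes are named here without values. Marrow was taken whole from 6 mice, all of the SCID/Bg strain, whose lymphocytes do not mature and whose beige allele weakens natural killer cells. Of these, 3 were untreated and 3 were given NOX-A12, a mirror-image RNA aptamer that binds the chemokine CXCL12, with dose, schedule, age and sex not given in the sources used here. RNA of 1 mouse went onto 1 Affymetrix Mouse Genome 430 2.0 array.

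Marrow macrophages engulf spent red cells and the nuclei that erythroblasts shed. They open the heme ring with heme oxygenase, keep iron in ferritin and release it through ferroportin to transferrin in plasma. Erythroblasts bind that transferrin with the transferrin receptor, take it into endosomes and move the iron into the cytosol to make heme. Much of this traffic is set after transcription, because iron regulatory proteins control the stability and translation of several of these messages, so transcript levels give only part of the picture.

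Intensities are linear probe-set values as deposited. A change below is the treated mean less the untreated mean of log2(intensity + 16), a scale that understates changes of dim probe sets, with its standard error (SE) and 95% interval from limma. Array medians were alike, at 44.8 to 45.6, and precision is bounded by having 3 arrays in a group. Marrow markers were bright on every array: those of neutrophils summed to between 84940 and 93675. The array of untreated mouse 3 stood apart. It held 851 probe sets more than 2-fold away from the other arrays' median, where every other array held 44 to 67. In marrow as a whole, fewer cells of a type and less RNA per cell cannot be told apart. These values also do not show which cells a message came from. The export and uptake sides are therefore names for the chosen genes, not readings of macrophages or erythroid cells.

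None of the iron genes passed the test for a difference between treated and untreated marrow. The most negative changes were those of Hmox1, the inducible heme oxygenase (-0.31 ± 0.14), and of the brightest probe set of Slc40a1, which encodes the iron exporter ferroportin (-0.22 ± 0.10). The uptake genes Tfrc and Slc11a2 differed by less than their errors at their brightest probe sets. Of the 14 member probe sets, 0 passed limma at an adjusted p under 0.05, where the background was 0% of all probe sets, and 0 had an unadjusted p under 0.05, where the background was 4.97% (3.1% lower and 1.88% higher). The lowest limma adjusted p of a member was 0.967. The groups did not overlap for 1 of the 14, against 9.85% of all probe sets (5.85% lower and 4% higher), a share near the background. Of the 14, 6 were lower and 8 higher, where 50.1% of all probe sets were lower.

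**Figure D1:**
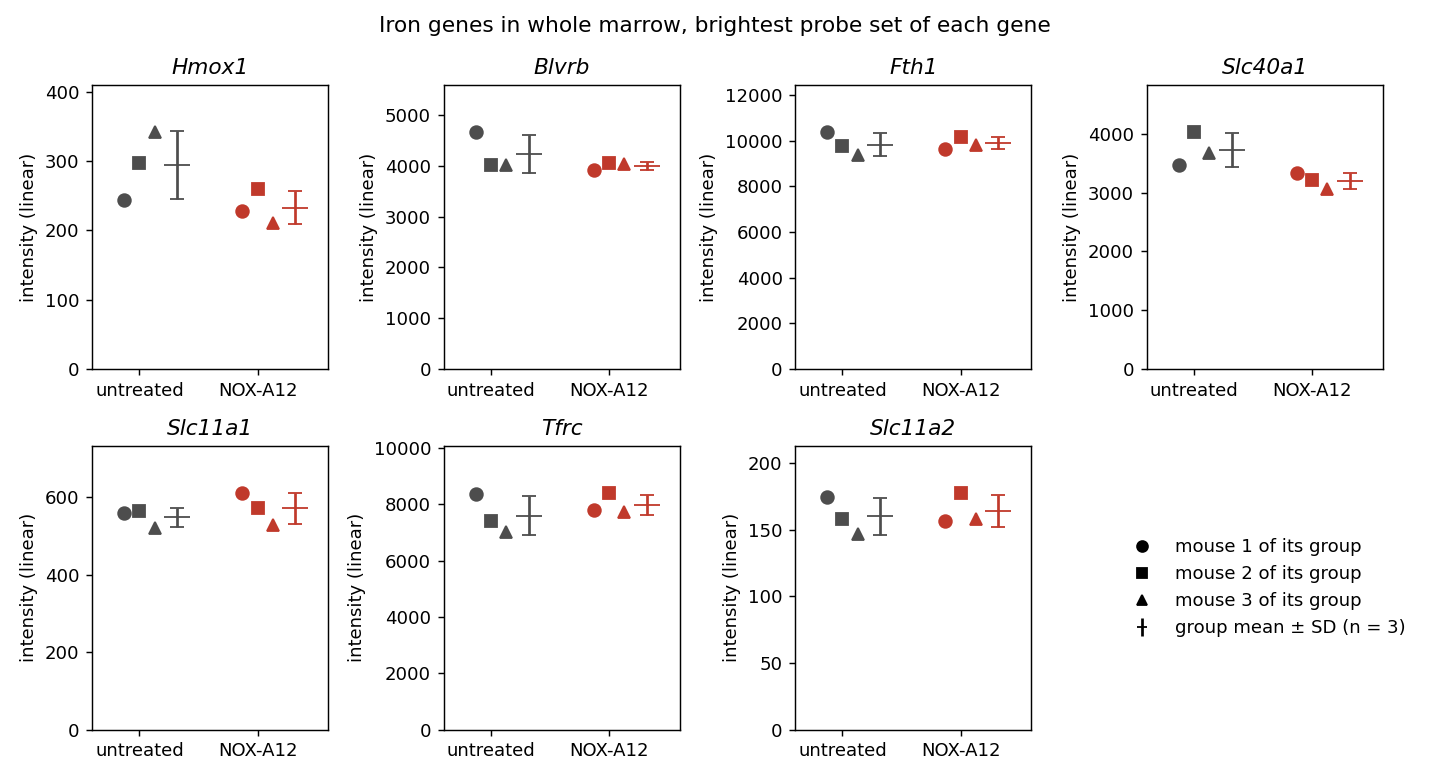
Linear intensity of the brightest probe set of each of the 7 measured iron genes (vertical axes, starting at 0) in 3 untreated and 3 NOX-A12 mice, with 1 symbol per mouse and the group mean ± SD beside them. Slc40a1 is the gene whose treated mice, between 3059 and 3330, all lie below the untreated mice, between 3471 and 4030.

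Heme breakdown was compared first. Hmox1, which opens the heme ring and frees its iron, had intensities of 244, 297 and 342 in untreated mice 1, 2 and 3 and of 228, 259 and 211 in NOX-A12 mice 1, 2 and 3. The groups overlapped, because untreated mouse 1 lay below NOX-A12 mouse 2. Untreated mice averaged 294 ± 49.2 (SD, n = 3), and mice given NOX-A12 averaged 233 ± 24.2 (SD, n = 3). The log2 change was -0.31 ± 0.14 (SE; 95% interval -0.64 to 0.02; limma adjusted p = 0.967), the most negative change of any member, equal to a ratio of 0.807 on this scale. Its size leaned on single untreated mice: it was -0.43 without untreated mouse 1 and -0.20 without untreated mouse 3.

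Blvrb encodes biliverdin reductase B, which reduces flavins and a form of biliverdin and is abundant in red cells as well as in macrophages. Its intensity was 4664, 4019 and 4010 in the untreated mice and 3917, 4054 and 4043 in the treated mice. Except for untreated mouse 1, all mice lay close together. The log2 change was -0.08 ± 0.10 (95% interval -0.31 to 0.16), under its SE, and it was -0.0036 without untreated mouse 1.

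Storage was read from ferritin heavy chain alone. Fth1, whose product oxidises iron as it enters the ferritin shell, was measured by 2 probe sets. Its brightest probe set read 10377, 9754 and 9359 in the untreated and 9658, 10186 and 9831 in the treated mice. These ranges overlap almost fully, and the log2 change was 0.01 ± 0.09 (95% interval -0.20 to 0.22). The other Fth1 probe set, whose identifier marks it as matching more than 1 transcript, read 8445, 7864 and 5619 against 7582, 7753 and 7466, a log2 change of 0.08 ± 0.16. Its lowest value was that of untreated mouse 3. Without that mouse the changes of the brightest and the other probe set were -0.02 and -0.10.

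Export was the step of the 1 member probe set whose groups did not overlap. Slc40a1 encodes ferroportin, the known exporter of iron from macrophages, which hepcidin binds and removes from the cell surface. Its brightest probe set read 3471, 4030 and 3685 in untreated mice 1, 2 and 3 and 3330, 3221 and 3059 in NOX-A12 mice 1, 2 and 3. All treated mice were below all untreated mice, with a gap of 141 intensity units between untreated mouse 1 and NOX-A12 mouse 1. The means were 3729 ± 282 (SD, n = 3) and 3203 ± 136 (SD, n = 3). The log2 change was -0.22 ± 0.10 (95% interval -0.45 to 0.01; limma adjusted p = 0.967), equal to a ratio of 0.861. A two-sided exact permutation test over the mice gave p = 0.1, and groups of 3 can give no smaller p. Groups of 3 that do not overlap always give this p, so it adds nothing to the lack of overlap. The change stayed between -0.27 and -0.16 when each mouse was left out in turn. Averaged over both probe sets of the gene it was -0.10.

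The other Slc40a1 probe set gave a different value. It read 955, 995 and 535 in the untreated and 888, 804 and 728 in the treated mice, and its log2 change was 0.01 ± 0.23 (95% interval -0.54 to 0.56). Untreated mouse 3 was the lowest of all 6 there, although it was the second highest at the brightest probe set. Without untreated mouse 3 the log2 changes of the brightest and the other probe set were -0.22 and -0.27, both without passing limma's adjusted test.

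Slc11a1 encodes NRAMP1, a divalent metal transporter of the phagosomes of macrophages and neutrophils. Its intensity was 560, 566 and 520 in the untreated and 611, 573 and 530 in the treated mice. The groups overlapped, and the log2 change was 0.06 ± 0.10 (95% interval -0.17 to 0.28), under its SE.

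On the uptake side, Tfrc encodes the transferrin receptor, which erythroblasts carry at high density. Its brightest probe set read 8351, 7391 and 7008 in the untreated and 7784, 8396 and 7735 in the treated mice. The groups overlapped, with untreated mouse 1 and NOX-A12 mouse 2 nearly equal at the top. The log2 change was 0.07 ± 0.10, and the 95% interval of the ratio ran from 0.891 to 1.24. Tfrc probe set 2, by brightness, read 574, 403 and 424 against 442, 497 and 413, a log2 change of -0.04 ± 0.15. Probe set 3 read 170, 114 and 44.4 against 86.3, 127 and 130, with a log2 change of 0.18 ± 0.39 whose error was the widest of all members.

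Slc11a2 encodes DMT1, which moves iron out of the endosome once transferrin has released it. At its brightest probe set it read 175, 158 and 147 in the untreated and 157, 178 and 158 in the treated mice. Again the groups overlapped, at a log2 change of 0.03 ± 0.10 (95% interval -0.21 to 0.27). Its dimmer probe sets gave, from the brightest of them down, -0.04 ± 0.10, -0.12 ± 0.14 and 0.14 ± 0.13. Of the 4 probe sets of this gene, 2 were higher and 2 lower, each with an interval that held 0.

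**Figure D2:**
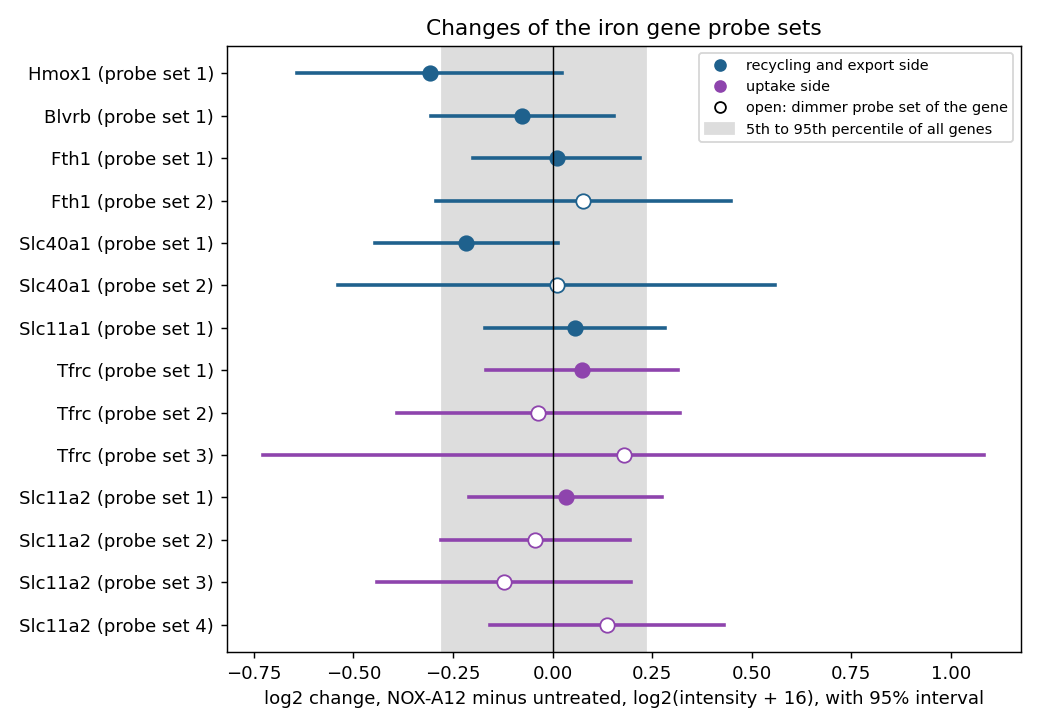
Log2 change (horizontal axis, NOX-A12 minus untreated) with its 95% interval for each of the 14 probe sets, filled for the brightest of a gene and open for the others, in blue for the recycling and export side and in purple for the uptake side; the grey band runs from the 5th to the 95th percentile of all genes (-0.28 to 0.24). Every interval holds 0, and Hmox1 at -0.31 is the member outside the band.

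The recycling and export side and the uptake side were then set side by side. Over the brightest probe sets, the median log2 change was -0.08 for the 5 measured export genes, of which 3 were lower, and 0.05 for the 2 measured uptake genes, both higher. The median over all genes was -0.01, and 52.8% of all genes were lower, so 3 of 5 is a share near the background. Without untreated mouse 3, 4 of 5 export genes and 1 of 2 uptake genes were lower, with medians of -0.11 and -0.0005, against 51.5% of all genes. Mouse by mouse, the mean log2 level of the export genes, each centred on its mean over the 6 arrays, was 0.03, 0.07 and 0.05 in the untreated and -0.04, -0.01 and -0.11 in the treated mice. All treated mice were below all untreated mice in this level, a description of chosen members for which no test is given. The uptake level was 0.10, -0.05 and -0.14 against -0.02, 0.12 and -0.02, so that the untreated mice spanned nearly the whole range. Export minus uptake averaged 0.08 ± 0.13 (SD, n = 3) without NOX-A12 and -0.08 ± 0.05 (SD, n = 3) with it, a difference of -0.16 in which the groups overlapped: untreated mouse 1, at -0.07, lay below NOX-A12 mouse 1, at -0.02. With the second brightest probe set of the 4 genes that have one, which leaves Slc40a1 and Fth1 against Tfrc and Slc11a2, the medians of the sides were 0.044 and -0.039 and the difference was 0.08.

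Probe sets of Slc40a1, Fth1 and Tfrc parted on the array of untreated mouse 3. Of the 14 member probe sets, 8 had their farthest value from the mean of the other arrays in that mouse. The same count was not made over all probe sets. This array stood apart there too, with 851 more than 2-fold away against 44 to 67 on the others. The 8 of 14 therefore cannot be read as a trait of the iron genes. Relative to the other 5 arrays, the log2 value of untreated mouse 3 at Slc40a1 was 0.11 at the brightest and -0.68 at the other probe set. At Tfrc it was -0.18, -0.12 and -1.20 from the brightest to the dimmest probe set, and at Fth1 it was -0.09 and -0.47. The 4 probe sets of Slc11a2 lay between -0.35 and -0.01 there, about as far apart as in untreated mouse 1 (0.05 to 0.41) or NOX-A12 mouse 3 (-0.21 to 0.15). Ncoa4, the receptor that delivers ferritin to lysosomes, was picked after its values were seen and showed the same split on this array: its brightest probe set read 4900 in untreated mouse 3 against 5707 and 5738 in untreated mice 1 and 2, while its other probe set read 319 against 1865 and 1178. Without untreated mouse 3, 11 of the 14 member probe sets were lower in treated marrow, against 6 of 14 with it. Over all probe sets the share lower was 51.8% without this mouse and 50.1% with it. The probe sets of a gene share its transcript and are not independent. Leaving it out made both Fth1 probe sets and the brightest Slc11a2 probe set (-0.02) lower, while Tfrc stayed at 0.02 at its brightest.

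**Figure D3:**
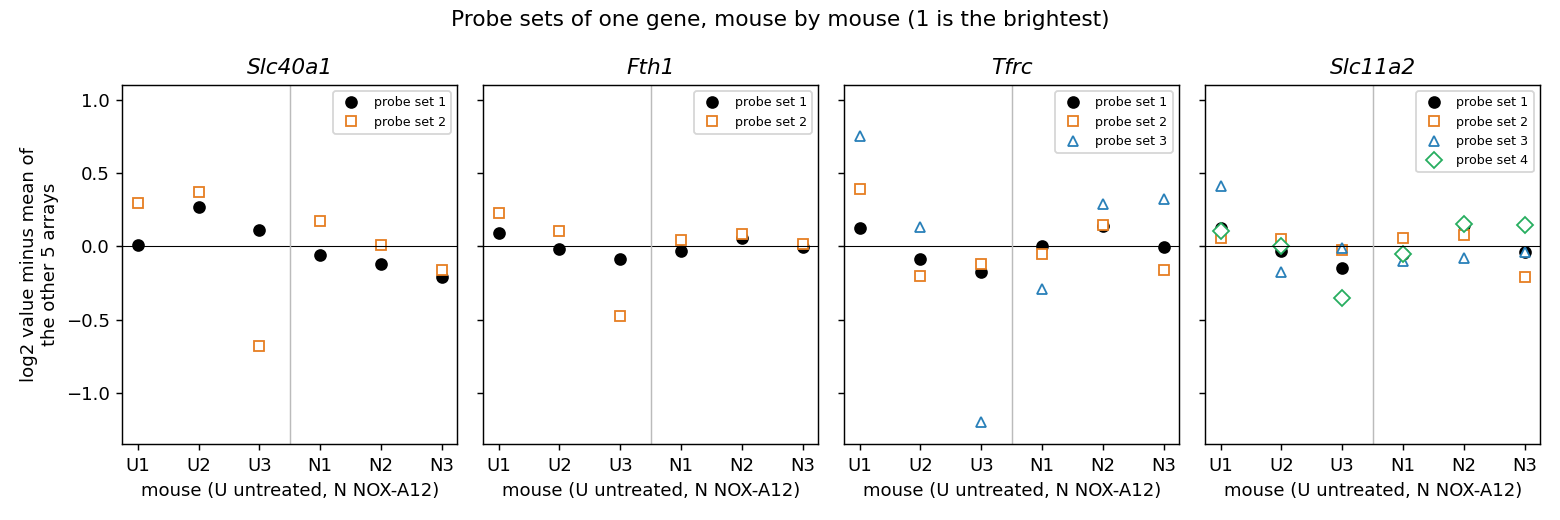
Log2 value of each probe set minus its mean on the other 5 arrays (vertical axis) in each mouse (U untreated, N NOX-A12) for the 4 genes with several probe sets, where probe set 1 is the brightest. In untreated mouse 3 the dimmest probe sets of Slc40a1 (-0.68), Fth1 (-0.47) and Tfrc (-1.20) lie far below the brightest of the same gene (0.11, -0.09 and -0.18), while Tfrc probe set 2 (-0.12) does not.

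Other genes of iron handling were read at 1 probe set each, the brightest, and none passed. Among the 17 measured genes that sense iron or act through hepcidin, 9 were lower and 8 higher, with a median log2 change of -0.04, 0 past the limma threshold and 3 with groups that did not overlap, Slc40a1 among them. Without untreated mouse 3, 13 of these 17 were lower, with a median of -0.07, where 51.5% of all genes were lower. Overlap was absent in 10.6% of all genes (6.68% lower and 3.92% higher). Tfr2, a transferrin receptor that senses transferrin in erythroid and liver cells, averaged 451 ± 43.4 (SD, n = 3) without and 374 ± 34.6 (SD, n = 3) with NOX-A12, at a log2 change of -0.26 ± 0.11, and its other probe set gave -0.15 ± 0.10. Hfe, whose product works with it, gave -0.22 ± 0.11. The other Hfe probe set was dim and gave -0.23 ± 0.22, which was 0.04 without untreated mouse 3. Bmp6, the ligand through which endothelium drives hepcidin in liver, was dim and gave -0.43 ± 0.17 with overlapping groups; it was the 1 gene of this list with an unadjusted p under 0.05, against 5.31% of all genes (3.53% lower and 1.78% higher).

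Genes of heme and haemoglobin handling were even in direction, with 7 of 13 higher, 6 lower, 0 past the threshold and a median of 0.01, which was -0.01 with 7 lower without untreated mouse 3. Pgrmc1, a heme-binding membrane protein, gave -0.14 ± 0.09. Hebp1, a cytosolic heme binder, gave -0.10 ± 0.08, and Blvra, the main biliverdin reductase of adult tissues, -0.15 ± 0.13. Hpx, which binds free heme in plasma, was near the floor at 5.96 in untreated and 9.52 in treated marrow. The groups did not overlap for 3 of the 13, with Pgrmc1 and Hebp1 lower and Hpx higher. Over all genes the share was 10.6% (6.68% lower and 3.92% higher). The list around BACH1 and NRF2, which control Hmox1 and the ferritins, holds these regulators and their partners (Nfe2l2, Bach1, Keap1, Mafk and Mafg) as well as target genes. Its 13 measured genes split 6 higher to 7 lower, with a median of -0.02 and 0 past the threshold. With untreated mouse 3 left out, 10 of the 13 were lower, with a median of -0.07. The named ones were Slc7a11, the cystine importer (0.22 ± 0.13), the quinone reductase gene Nqo1 (-0.19 ± 0.14), the NRF2 inhibitor gene Keap1 (-0.16 ± 0.14) and the sulfiredoxin gene Srxn1 (-0.11 ± 0.10).

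Oxidases, reductases and other iron transporters gave 9 higher and 12 lower of 21 genes, with a median of -0.02 and 0 past the threshold. The median was 0.0012, with 10 lower, when untreated mouse 3 was left out. The groups did not overlap for 3 of the 21, Exoc6, Steap3 and Timd2, all lower. Over all genes the share was 10.6% (6.68% lower and 3.92% higher). Exoc6, a vesicle-tethering protein needed for transferrin recycling in erythroid cells, averaged 1288 ± 92.3 (SD, n = 3) without and 1121 ± 10.6 (SD, n = 3) with NOX-A12, which is a log2 change of -0.20 ± 0.09. Its dimmer probe sets gave 0.02 ± 0.12, -0.14 ± 0.11 and, near the floor, 0.02 ± 0.16. Steap3, the endosomal ferrireductase that works between Tfrc and Slc11a2, gave -0.14 ± 0.09, and its dimmer probe sets 0.05 ± 0.12 and -0.20 ± 0.16. Timd2, a ferritin receptor (-0.18 ± 0.11), and Hephl1, a ferroxidase (0.23 ± 0.13), were dim.

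Several dimmer probe sets of ceruloplasmin gave larger changes than any member, although its brightest did not. Cp encodes the ferroxidase that oxidises iron as ferroportin releases it, and it was singled out after its values were seen. Its brightest probe set gave -0.09 ± 0.15, with overlapping groups. The second brightest read 149, 163 and 204 in untreated mice 1, 2 and 3 and 90.9, 99.3 and 113 in NOX-A12 mice 1, 2 and 3, a log2 change of -0.68 ± 0.14 (limma adjusted p = 0.926). All 3 treated mice lay below all 3 untreated mice. In all, 7 of its 8 probe sets were lower, where 50.1% of all probe sets were. For 4 the groups did not overlap, with log2 changes from -0.68 to -0.43, where 5.85% of all probe sets were lower without overlap. Without untreated mouse 3 these 4 gave values from -0.56 to -0.34. Stromal and adipocyte markers were lower in the same mice: 12 of 12 were lower, with a median of -0.56 (-0.38 without untreated mouse 3) and a summed intensity of 9989 to 13394 in untreated against 7459 to 9389 in treated marrow. Their part in the values of Cp was not tested.

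**Figure D4:**
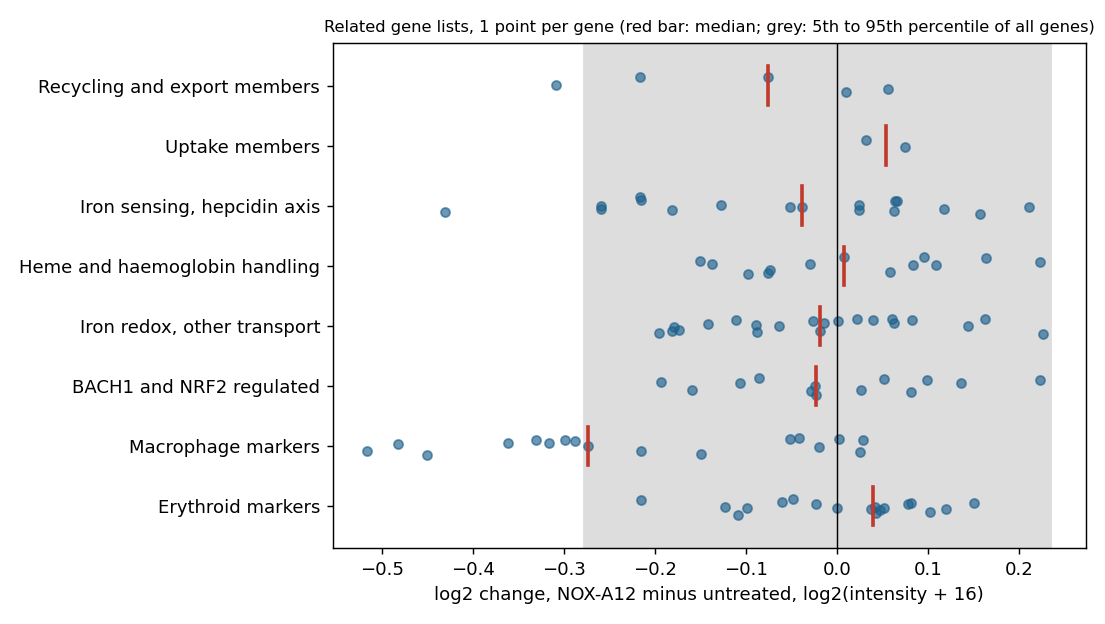
Log2 change (horizontal axis, NOX-A12 minus untreated) of each gene of the iron lists and of macrophage and erythroid markers, 1 point per gene at its brightest probe set, with the list median as a red bar and the 5th to 95th percentile of all genes in grey. The iron lists lie around 0, with medians from -0.08 to 0.05, while macrophage markers have a median of -0.27 and erythroid markers one of 0.04 (-0.18 and -0.04 without untreated mouse 3).

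Markers of the cells that carry the export and uptake machinery were also read. Of 17 markers of iron-recycling macrophages, 14 were lower and 3 higher, with a median of -0.27, 0 past the limma threshold, and 4 with an unadjusted p under 0.05, all lower, against 3.53% of all genes. These 4 were Siglec1 (-0.48 ± 0.12), an adhesion receptor of island macrophages, the engulfment receptor genes Mertk (-0.45 ± 0.13) and Axl (-0.33 ± 0.13), and the mannose receptor gene Mrc1 (-0.32 ± 0.10). Siglec1 has 3 probe sets and Axl 2, and only the brightest of each is given here. Spic, the heme-induced transcription factor that drives ferroportin in iron-recycling macrophages, is given for that role and was picked with its values known. It read 155, 221 and 144 in the untreated and 149, 123 and 144 in the treated mice at its brightest probe set. Its change of -0.27 ± 0.16 was -0.06 ± 0.17 at the other probe set. The mean level of the list, centred on the 6 arrays, was -0.02, 0.17 and 0.18 in untreated and -0.03, -0.15 and -0.15 in treated mice. The list's summed intensity ranged from 9043 to 10482 in untreated and from 8403 to 9486 in treated mice, and without untreated mouse 3 all 17 were lower, with a median of -0.18. The brightest probe set of Slc40a1 was lower in the same mice, and the part of macrophage number in its value was not tested.

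The direction of erythroid markers rested on untreated mouse 3. Of 18 measured, 11 were higher and 7 lower, with a median of 0.04, and without that mouse 14 were lower, with a median of -0.04. With all mice 0 were past the threshold, 0 had an unadjusted p under 0.05 and 0 had separate groups. Their summed intensity ranged from 63799 to 74377 in untreated and from 65537 to 70679 in treated mice. Named by their p, the heme synthesis genes Urod and Alad gave -0.12 ± 0.11 and -0.11 ± 0.11, and the erythroid transcription factor gene Gata1 gave -0.10 ± 0.10. Hba-a1 was near the floor, at 9.08 in treated marrow, at the 1 probe set that names it alone. All of these named markers were among the 7 lower ones, and the highest change among the 11 higher ones was 0.15. The mean level of the list, centred on the 6 arrays, was 0.15, -0.05 and -0.11 in untreated mice and -0.06, 0.09 and -0.03 in treated mice, the highest being untreated mouse 1, followed by NOX-A12 mouse 2. The uptake genes had these same mice at the top.

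Markers of other marrow cells that hold iron genes were also read. Neutrophil markers, relevant to Slc11a1, were higher in 9 of 12 with a median of 0.10, which was -0.02 without untreated mouse 3; Mmp8 and Mpo gave 0.12 ± 0.09 and 0.12 ± 0.10. Monocyte markers had a median of 0.31, with 6 of 9 higher, and -0.01 without untreated mouse 3; their named genes were Cd14 (2.11 ± 0.23) and F13a1 (0.52 ± 0.19). Endothelial markers were lower in 8 of 8, with a median of -0.47 (-0.36 without untreated mouse 3), as in Robo4 (-0.62 ± 0.12) and Kdr (-0.54 ± 0.12), and the stromal list was led by Pdgfra (-0.58 ± 0.09) and Igfbp5 (-0.61 ± 0.11). Lymphoid markers were lower in 8 of 9, with a median of -0.16 (-0.29 without untreated mouse 3, with 7 lower), among them Klrd1 (-0.52 ± 0.09) and Cd79a (-0.53 ± 0.15). The 1 higher lymphoid marker changed by 0.46. Groups did not overlap for Klrd1, Cd79a and this marker, where 6.68% of all genes were lower and 3.92% higher without overlap. Muscle markers, led by Ckm (0.38 ± 0.14) and Mylpf (-0.07 ± 0.09), had a median of -0.02 (0.03 without untreated mouse 3), and hepatocyte markers, led by Ahsg (0.31 ± 0.11) and Apoa1 (-0.23 ± 0.21), one of 0.06 (0.11 without it) with 4 of 5 near the floor at intensities under 20. None of these genes passed limma's adjusted threshold, and their part in the values of the iron genes was not tested.

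The genes whose log2 values followed a member most closely over the 6 arrays were chosen as the highest of 10539 correlations, so no p is given for them. The points are the same 6 arrays and 2 groups in each case. For Slc40a1 they were Carns1, Ikzf3 and Cyp51, with Pearson's r from 0.986 to 0.997. For Hmox1 they were Jcad, Soga1 and Apobec3, with r from 0.984 to 0.994. For Tfrc they were Cstf2t, Zfp740 and Mto1, with r from 0.991 to 0.995. Spearman's rho was 0.943 or 1 throughout, and r without the 2 arrays farthest from the member's median was 0.967 to 0.998. In all, 82, 162 and 276 genes exceeded an r of 0.9 with Slc40a1, Hmox1 and Tfrc, in that order.

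Start-site windows from RefSeq (GRCm38.p6; 250 bases before to 50 after each annotated start) were held for 5 of the 9 genes: Blvrb, Fth1, Ftl1, Slc11a1 and Tfrc, with 8 windows in all. Windows for Slc40a1, Hmox1, Slc11a2 and Trf were not used here. The antioxidant response core TGACNNNGC, searched on both strands, was in 0 of the 8 windows and in 12.4% of all 32851 windows. The GATA motifs AGATAA and TGATAA, also on both strands, were in 0 of 8 each, against 11.2% and 9.05% of all. The loop of the iron-responsive element, CAGTGN, on the sense strand of the 50 bases after the annotated start, was in 0 of 8, against 7.08% of all. The rest of each message was not searched, so this count cannot show whether a message holds the element. These results say only that the letters are not in these windows.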

How the data were processed

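Total RNA of whole marrow was labelled with biotin and hybridised, 1 mouse per array, per the labels' protocols. The authors' deposited values are linear probe-set intensity values, from 0.66 to 16790; which software and normalization made them is not given in the sources used here. Array medians of log2(intensity + 16) lay within 0.0193, under the limit of 0.1, so no further normalization was applied. Groups came from sample titles, which number separate mice. A linear model without covariates was run for every probe set over all 6 arrays in limma (version 3.58.1; R version 4.3.3), two-sided and with moderated variances, and p-values were adjusted by Benjamini-Hochberg over the 45037 probe sets. The platform annotation named 1 gene for 34945 probe sets, several for 932 and none for 9160. The probe set with the highest mean stands for a gene in lists.

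The 9 members, the lists and the naming rule were chosen with earlier results of these data known. The rule named all members, the 4 genes with the smallest p in each iron, macrophage and erythroid list, and 2 in other marker lists. Deviations from the group means correlated at r = -0.09, 0.05 and 0.03 in same-numbered mice and from -0.21 to 0.22 in the others. With 3 mice in a group, these values cannot show or exclude a pairing, and the labels name none. In 5 simulated runs of 45037 probe sets with independent noise, 200 probe sets per run were changed 2-fold or 4-fold. The fit called 91.0% of 2-fold and 98.8% of 4-fold changes among brighter probe sets, and 6.78% of its calls were unchanged. The adjusted cutoff depends on how many probe sets change, so these rates do not carry over to the real arrays. There Cd14, at a log2 change of 2.11 ± 0.23 (SE), had a limma adjusted p of 0.790. Alternatives are described in the closing section.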

Additional observations from a re-analysis of the deposited data

How the results depend on the processing

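No member, no listed gene and no other probe set passed the limma threshold in any setting run: quantile normalization, median centring, offsets of 1 and 64, bright probe sets only, array weights, robust variances with a mean trend, a replicate block for mouse number, genes averaged over their probe sets, no _x_at or _s_at probe sets, an adjusted p under 0.1 in the main fit, and leaving out each mouse (0 calls throughout). The cutoff of 0.1 was not applied to the other settings. The lowest limma adjusted p of any probe set was 0.0631 without untreated mouse 1 and 0.0706 with offset 1. Those settings would therefore have calls at 0.1, though none of a member. With the replicate block the lowest limma adjusted p of a member was 0.959, and the block changed no call. The lowest in any setting was 0.620, without untreated mouse 1. There and with robust variances, 2 of the 14 member probe sets, of Hmox1 and Slc40a1, had an unadjusted limma p under 0.05. With array weights, bright probe sets only and offset 64, 1 of the 14 did, the brightest of Slc40a1. The share of all probe sets at that p was not counted in these settings. Values moved with the probe set chosen. With the second brightest probe set, which only 4 of the 7 genes have, the export median was 0.044 and export minus uptake 0.083, and the log2 changes of Slc40a1 (0.010), Tfrc (-0.035) and Slc11a2 (-0.044) changed sign. Averaged over a gene's probe sets, Slc40a1 was -0.10, Slc11a2 0.0010 and Fth1 0.044. Leaving out 1 mouse at a time gave ranges of -0.11 to -0.0036 for the export median, -0.0005 to 0.12 for the uptake median and -0.24 to -0.11 for export minus uptake. It gave -0.025 to 0.050 for Fth1 and -0.021 to 0.092 for Slc11a2, both of which turned negative without untreated mouse 3 or NOX-A12 mouse 2. Hmox1 (-0.43 to -0.20), Blvrb (-0.11 to -0.0036), Slc40a1 (-0.27 to -0.16), Slc11a1 (0.01 to 0.11) and Tfrc (0.02 to 0.15) kept their sign at the brightest probe set. The cause of the disagreement between probe sets was not tested.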
